A study of Mus musculus with 24 samples.

Results

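The 40 genes described here serve DNA replication and cell division. They come from a fixed list of gene symbols, 17 acting in S phase and 23 in mitosis, matched to the Ensembl identifiers of a mouse count table of 39017 genes. All 40 had enough reads to enter the fits, in which 18093 genes were tested. Messenger RNA was sequenced from dendritic cells sorted from the spleen of F1 mice of a cross between C57BL/6 and FVB/N. The 5 sorted subsets were labelled PDC (plasmacytoid dendritic cells), Canonical CD8+, Non-canonical CD8+, Esam-hi CD11b+ and Esam-lo CD11b+. The mice carried either 2 wild-type alleles of Flt3 (Flt3 +/+, called WT below) or 1 allele with an internal tandem duplication (Flt3 ITD/+, called ITD), an activating lesion of this growth factor receptor that is found in acute myeloid leukemia. The labels name no further allele or agent and give no age. There were 24 libraries, 12 of each genotype. PDC came from experiment batches A and B, both CD8+ subsets from B, C and D, and both CD11b+ subsets from C and D. Each batch held 1 WT and 1 ITD library of a subset, which makes 12 pairs. According to the series' design text the 2 or 3 replicates of a group came from independent experiments.

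Before S phase a cell loads the Mcm2 to Mcm7 helicase onto replication origins. On entering S phase it fires the helicase with Cdc45 and the GINS complex, and makes deoxynucleotides through ribonucleotide reductase and thymidylate synthase. Many of these genes are targets of E2F factors. The genes of the mitotic group are switched on later, in G2 and M, largely through the MuvB complex with B-Myb and FoxM1, and their products condense chromosomes, build the spindle and carry out the checkpoint and the exit from mitosis. Most dendritic cells of the spleen have stopped dividing, although some CD8+ and CD11b+ cells still cycle, while plasmacytoid cells are known as largely non-dividing. In these bulk libraries fewer cycling cells and less RNA of these genes per cycling cell cannot be told apart.

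Libraries held between 11197145 and 22248404 reads counted to genes. Marker genes followed the labels in part. The summed level of 7 PDC markers was at least 9451 CPM (reads scaled to a common library size) in PDC and at most 1313 in the other subsets, and 7 CD11b+ dendritic markers reached 2328 to 2643 in the Esam-hi cells and at most 1820 elsewhere, with 1065 to 1380 in PDC. The summed level of 7 cDC1 markers did not set canonical CD8+ cells (3524 to 6796) apart from PDC (4289 to 6945), while other subsets held at most 1550. Most of the PDC sum was Irf8 (3763 to 6511 in PDC, 1488 to 3574 in canonical CD8+ cells). Each other marker of this list was higher in every canonical CD8+ library than in any PDC library. Among them were Xcr1 (574 to 1222 against 1.38 to 5.74) and Cd8a (462 to 693 against 53.2 to 85.1). Libraries of one batch resembled each other across genotypes. Among the canonical CD8+ cells the batch B library had the highest level of 16 of 17 S-phase and of all 23 mitotic members in each genotype, where 39.7% of all tested genes were highest there in WT and 39% in ITD. Among the PDC, batch B stood above batch A for all 23 mitotic members in both genotypes, against 54% of tested genes in WT and 50.5% in ITD. Values within batches are given beside the comparisons for this reason.

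Levels of the S-phase group differed between WT subsets mainly by PDC being low. The summed level of the 17 genes, in CPM scaled by TMM factors (trimmed mean of M values, a correction for library composition), was 331 and 403 in the PDC of batches A and B. In canonical CD8+ cells it was 1192, 757 and 834 in batches B, C and D. The non-canonical CD8+ cells held 634, 649 and 592. PDC were the lowest of the 5 WT subsets in both libraries, and each canonical library stood above all 3 non-canonical ones. The Esam-hi CD11b+ cells had 773 and 975 in batches C and D, and the Esam-lo cells 764 and 733. As means with their SD the order was canonical CD8+ (927 ± 232, n = 3), Esam-hi (874 ± 143, n = 2), Esam-lo (749 ± 21.6, n = 2), non-canonical CD8+ (625 ± 29.5, n = 3) and PDC (367 ± 50.6, n = 2). The range of the canonical CD8+ cells overlapped those of both CD11b+ subsets, while Esam-hi and Esam-lo libraries did not overlap. The canonical library of batch B had no CD11b+ partner. In batches C and D the canonical sum was 0.979 and 0.856 times that of Esam-hi cells.

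The mitotic group spread further. Its 23 genes summed to 57.1 and 213 CPM in WT PDC, to 789, 395 and 370 in canonical CD8+ cells and to 194, 251 and 161 in non-canonical CD8+ cells. The Esam-hi cells held 475 and 661, and the Esam-lo cells 438 and 379. Esam-hi (568 ± 132, n = 2) and canonical CD8+ cells (518 ± 235, n = 3) led, Esam-lo cells followed (409 ± 41.9, n = 2), and non-canonical CD8+ cells (202 ± 45.1, n = 3) and PDC (135 ± 110, n = 2) were lowest. The ranges of the canonical CD8+ and both CD11b+ subsets overlapped, except that each Esam-hi library was above each Esam-lo one, and those of non-canonical CD8+ cells and PDC overlapped too. The plot of summed levels by library shows both groups of genes side by side.

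**Figure D1:**
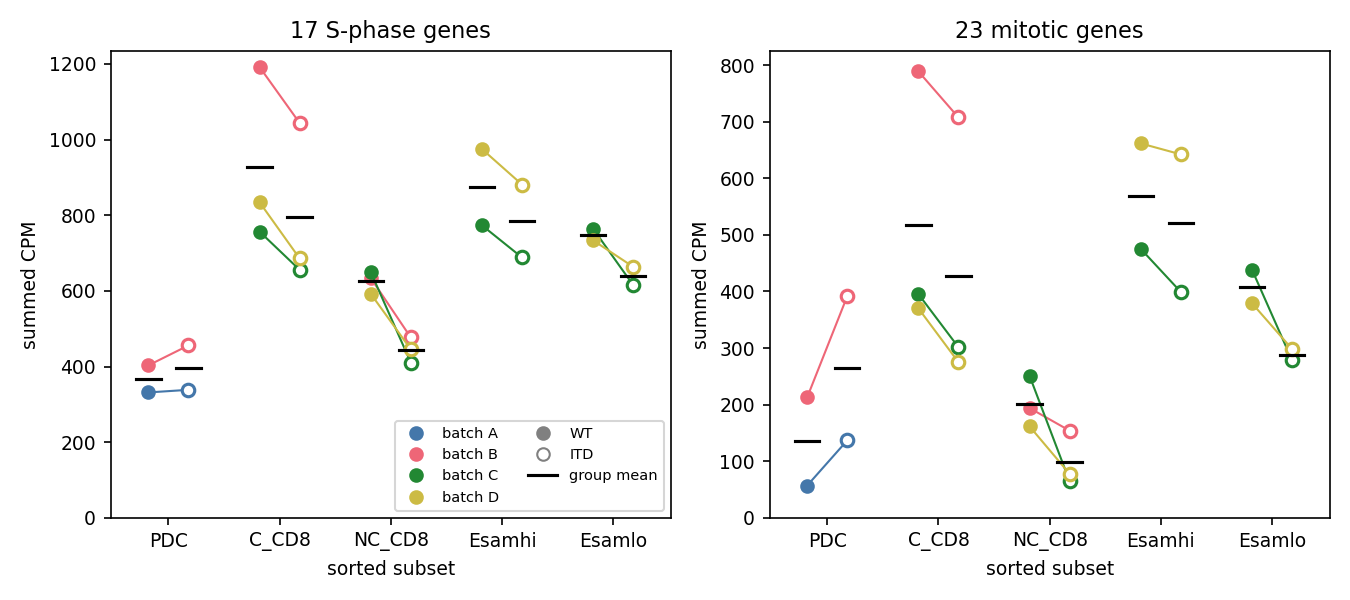
Summed TMM-scaled CPM of the 17 S-phase members (one panel) and the 23 mitotic members (other panel) in each of the 24 libraries, by subset. Filled points are WT, open points ITD, lines join the libraries of a batch, and bars are group means. WT PDC sit at 331 and 403 for S-phase genes, below every other WT library, and the ITD libraries of the non-canonical CD8+ cells (411 to 477) lie below their WT partners (592 to 649).

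The mix of the groups also differed. Mitotic members summed to 61.4% and 67.9% of the S-phase sum in the 2 WT Esam-hi libraries and to 44.4% to 66.2% in canonical CD8+ cells. In non-canonical CD8+ cells the share was 27.3% to 38.6%. WT PDC gave 17.2% in batch A and 52.9% in batch B. Levels were also set per kilobase of annotated exon, for a rough comparison between genes. All annotated exons of a gene were merged, so ranks depend on the annotation too (1531 bases for Ccnb2, 9013 for Top2a). On this scale Pcna, the sliding clamp of DNA polymerases, had the highest level of the S-phase members in each WT subset. It ran from 28.3 CPM per kb in PDC to 59.6 in Esam-hi cells. The mitotic cyclin Ccnb2 led the mitotic members in 4 subsets, from 7.64 CPM per kb in non-canonical CD8+ to 22.4 in canonical CD8+ cells. In PDC the transcription factor Foxm1 led instead, at 5.72 CPM per kb. The checkpoint kinase Ttk was the lowest mitotic member per kilobase in PDC (0.135), canonical CD8+ (0.627), Esam-hi (0.527) and Esam-lo cells (0.505).

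By gene, 12 of 17 S-phase members had their highest WT mean in canonical CD8+ cells, 4 in Esam-hi cells (Mcm4, Mcm7, Pcna and Rrm1) and 1, the thymidine kinase Tk1, in Esam-lo cells. PDC held the lowest mean of 16, the exception being Rrm1, the large subunit of ribonucleotide reductase, which was lowest in non-canonical CD8+ cells. Of the 23 mitotic members 13 were highest in Esam-hi cells, 9 in canonical CD8+ cells and 1, Foxm1, in PDC. For both groups of genes the canonical means include batch B, from which no CD11b+ cells came. The lowest mean was in PDC for 19 and in non-canonical CD8+ cells for 4 (Ccnb1, Cdc20, Plk1 and Foxm1). The ratio of highest to lowest WT mean was widest for the checkpoint kinase Bub1 (12.9) and the proliferation marker Mki67 (11.5) and narrowest for Rrm1 (1.62).

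**Figure D2:**
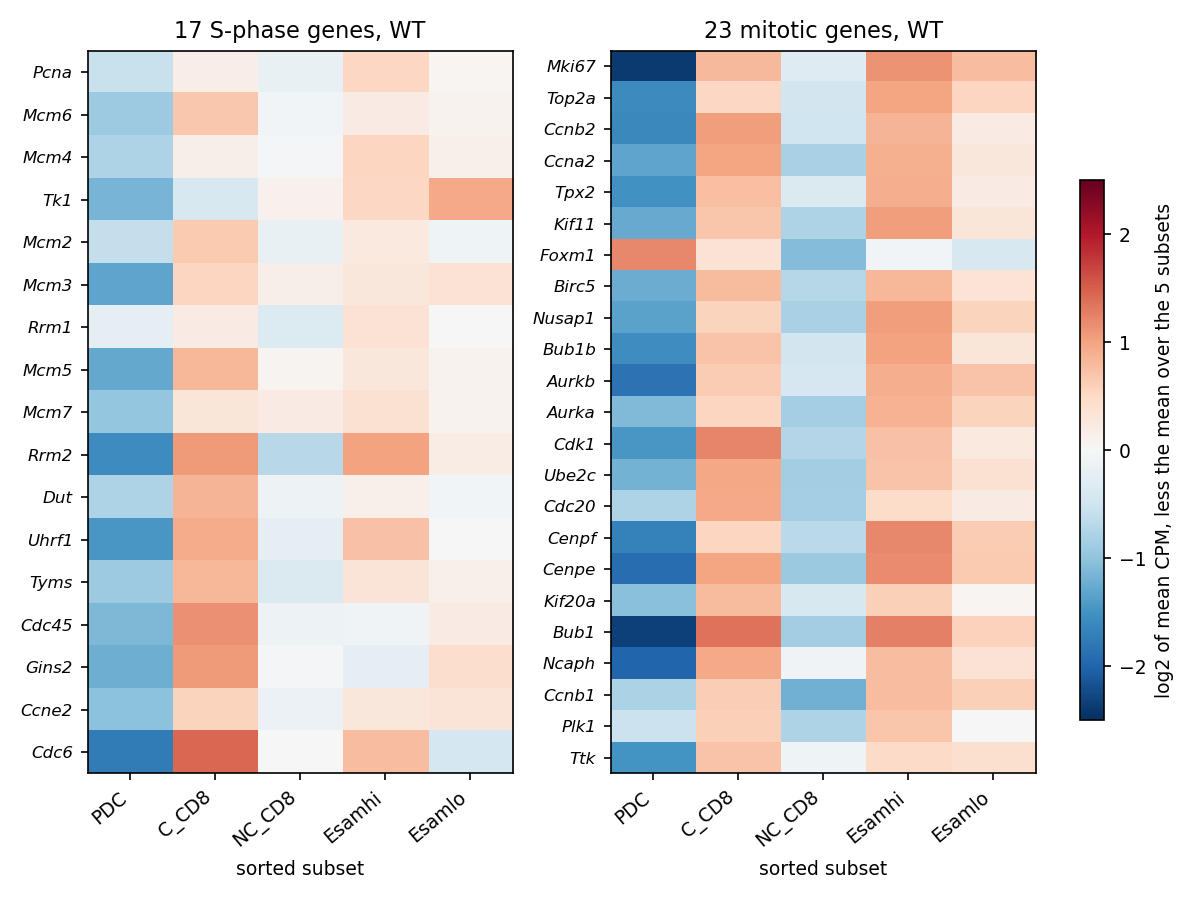
Log2 mean CPM of each of the 40 members in each WT subset, less the mean of that gene over the 5 WT subsets, with S-phase and mitotic members in separate blocks. PDC are the lowest column for 16 of 17 S-phase and 19 of 23 mitotic members, while Foxm1 is highest there.

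A test across the 5 WT groups (edgeR quasi-likelihood, adjusted p below 0.05 over all tested genes) called 14 of 17 S-phase and 11 of 23 mitotic members. It called 46.7% of all tested genes, so the mitotic count is near the background. The smallest adjusted p-values were those of Gins2, a subunit of GINS (0.000284), Dut, which removes dUTP (0.000321), and the helicase subunit Mcm3 (0.00101). Leaving out the WT PDC library of batch A lowered the count from 25 to 16. A batch term raised this to 16 S-phase and 21 mitotic members, where 64.1% of tested genes were. Batch A held only PDC, so with a batch term the level of PDC against other subsets rested on the PDC of batch B.

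The promoters of these genes are shown because the groups move together across subsets and are known to be controlled through different elements. RefSeq start sites (GRCm38.p6) were found for 14 S-phase and 18 mitotic members, and the 250 bases before each start were searched on both strands for TTTGAA (the CHR element bound by MuvB), CCAAT (the NF-Y box) and any of 4 words of the E2F type. These were TTGGCGC, then the related word TTGCCGC, the third form spelled TTCGCGC, and the last form spelled TTCCCGC. Of the 18 mitotic windows 7 held TTTGAA (38.9%), as did 2 of 14 S-phase windows (14.3%), against 13.4% of 11202 tested genes and 16% of all 32851 windows of that length. E2F-type words were present in 7 of 14 S-phase windows (50%) and 3 of 18 mitotic ones (16.7%), against 15.4% of tested genes and 7.89% of all windows. CCAAT was present in 15 of 18 mitotic (83.3%) and 10 of 14 S-phase windows (71.4%), against 40.1% of tested genes and 33.8% of all windows. TTTGAA and CCAAT were both present in the same 7 mitotic windows, against 5.06% of tested genes. A match describes letters and does not show binding.

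The 150 bases before the start are printed below for 4 mitotic and 2 S-phase members named in the results, in capitals where one of these words matches either strand. Mki67, Top2a (the topoisomerase that untangles sister chromatids), Cdk1 (the mitotic kinase) and Cdc20 (the activator of the anaphase-promoting complex) each hold TTTGAA and CCAAT. Mcm6 and Mcm5 are helicase subunits with E2F-type words, and in Mcm6 those of the opposite strands overlap within each of its longer capital runs. The windows are chr7:135716380-135716529 (minus strand) for Mki67, chr11:99024190-99024339 (minus) for Top2a, chr10:69352913-69353062 (minus) for Cdk1, chr4:118437344-118437493 (minus) for Cdc20, chr1:128359706-128359855 (minus) for Mcm6 and chr8:75109359-75109508 (plus) for Mcm5.
Mki67: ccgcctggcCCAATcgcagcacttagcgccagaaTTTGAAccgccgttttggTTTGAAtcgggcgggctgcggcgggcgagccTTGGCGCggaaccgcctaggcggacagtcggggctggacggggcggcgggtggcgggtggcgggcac
Top2a: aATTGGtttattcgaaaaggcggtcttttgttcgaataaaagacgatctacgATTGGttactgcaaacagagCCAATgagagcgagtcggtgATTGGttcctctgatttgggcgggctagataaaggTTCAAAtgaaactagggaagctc
Cdk1: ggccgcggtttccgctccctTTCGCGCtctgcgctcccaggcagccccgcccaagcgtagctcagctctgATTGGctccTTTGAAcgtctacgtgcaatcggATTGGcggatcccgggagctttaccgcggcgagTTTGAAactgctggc
Cdc20: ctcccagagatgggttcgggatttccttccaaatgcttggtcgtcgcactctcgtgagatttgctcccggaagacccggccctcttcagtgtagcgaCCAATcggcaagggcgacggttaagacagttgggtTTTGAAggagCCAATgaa
Mcm6: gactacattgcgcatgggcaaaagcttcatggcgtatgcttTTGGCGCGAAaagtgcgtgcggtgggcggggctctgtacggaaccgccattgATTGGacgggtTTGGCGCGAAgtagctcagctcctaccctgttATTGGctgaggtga
Mcm5: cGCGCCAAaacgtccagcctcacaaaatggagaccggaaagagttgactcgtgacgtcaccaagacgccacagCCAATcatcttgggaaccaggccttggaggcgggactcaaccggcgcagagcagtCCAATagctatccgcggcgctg

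The first WT comparison asks how PDC differ from canonical CD8+ cells. Nearly all members were lower in PDC. Mki67, which coats mitotic chromosomes, had 1.11 and 15.0 CPM in the PDC of batches A and B and 91.2, 71.8 and 60.6 in canonical CD8+ cells of batches B, C and D. Gins2 had 2.13 and 2.70 CPM in PDC against 15.6, 8.81 and 10.6. Neither gene overlapped between the groups, and for Mki67 the PDC library of batch A lay far below that of batch B. Mcm6 had 39.4 and 55.0 CPM against 181, 106 and 136, again with no overlap.

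By edgeR's test 14 of 17 S-phase members were lower in PDC, where 19.5% of all tested genes were lower. The fall was clearest for Gins2 (log2 fold change -2.27 ± 0.35 SE, adjusted p = 5.03e-05), Dut (-1.62 ± 0.25, 5.88e-05), Mcm3 (-1.86 ± 0.30, 8.87e-05) and Mcm6 (-1.58 ± 0.29, 0.000339). The 3 members not called were Pcna (-0.72 ± 0.30), Rrm1 and Tk1. Of the mitotic members 15 of 23 were lower. They included Aurkb, the kinase of the chromosomal passenger complex (-2.47 ± 0.54, adjusted p = 0.00157), Mki67 (-3.21 ± 0.72, 0.00177), Bub1 (-3.69 ± 0.86, 0.00243) and Cenpe, the kinetochore motor (-2.91 ± 0.68, 0.00248). The median log2 difference was -1.62 for the S-phase and -2.22 for the mitotic group, against -0.03 over all tested genes. Cdk1 (-2.69), Top2a (-2.11), Mcm2 (-1.25), Mcm5 (-2.12), Rrm2, the small subunit of ribonucleotide reductase (-2.65), and Tyms, thymidylate synthase (-1.76), were called too, while the main mitotic cyclin Ccnb1 (-1.41 ± 0.69, adjusted p = 0.119) was not.

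Within batch B, where both subsets were sorted, canonical CD8+ cells had 2.96 times the summed S-phase and 3.70 times the summed mitotic level of PDC. With batch as a term in the model 16 S-phase and 20 mitotic members were lower, where 27.3% of tested genes were lower, and Pcna was then among them (-1.45, adjusted p = 3.19e-06). That fit set the level of PDC by the batch B libraries, because batch A held only PDC. Pcna had 83.7 CPM in the PDC of batch A and 52.2 in those of batch B, the reverse of the batch difference of Mki67. Without the WT PDC library of batch A the count of called members was 13 in place of 29.

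Foxm1, a transcription factor of G2 and M genes, was the only member with a log2 difference above 0 between PDC and canonical CD8+ cells. It had 22.7 and 43.1 CPM in WT PDC, 26.9, 13.6 and 14.8 in canonical CD8+, 5.58, 7.73 and 6.98 in non-canonical CD8+, 13.8 and 13.7 in Esam-hi and 14.0 and 7.83 in Esam-lo cells. Both PDC libraries stood above all other WT libraries, except that the canonical CD8+ library of batch B lay between them. The difference between PDC and canonical CD8+ cells did not pass the test (0.84 ± 0.41, adjusted p = 0.122), and it did with batch as a term (0.87 ± 0.35, adjusted p = 0.0487), where 25.7% of tested genes were higher. The batch term again set the level of PDC by the batch B libraries. The exons of Foxm1 overlap those of another gene over 2.5% of their bases.

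The second comparison sets non-canonical against canonical CD8+ cells of WT mice. Non-canonical cells were lower in both groups of genes. Dut had 21.7, 21.8 and 18.6 CPM in non-canonical cells of batches B, C and D and 51.9, 36.7 and 33.001 in canonical cells. Rrm2 had 9.43, 18.7 and 10.3 against 62.4, 36.4 and 31.2. Bub1 had 3.08, 3.00 and 2.95 against 24.03, 12.02 and 5.99. None of the 3 overlapped, and in each the canonical library of batch B was the highest.

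Of the S-phase members 6 of 17 were lower by edgeR's test, where 12.6% of all tested genes were lower. These were Dut (-0.97 ± 0.21, adjusted p = 0.00266), Gins2 (-1.11 ± 0.29, 0.00805), Rrm2 (-1.76 ± 0.45, 0.00829), Tyms (-1.21 ± 0.38, 0.0277), Mcm2 (-0.83 ± 0.26, 0.0281) and Mcm6 (-0.75 ± 0.25, 0.0345). Of the mitotic members 5 of 23 were lower: Foxm1 (-1.45 ± 0.39, adjusted p = 0.0109), Cenpe (-1.91 ± 0.55, 0.0162), Bub1 (-2.22 ± 0.67, 0.0213), Aurka, the kinase of the spindle poles (-1.39 ± 0.47, 0.0369), and Ccnb1 (-1.82 ± 0.61, 0.0378). The 23 mitotic members all had a log2 difference below 0 (median -1.39) and 16 of 17 S-phase members did (median -0.77), against a median of -0.0046 over all tested genes. Cdk1 (-1.95 ± 0.71, adjusted p = 0.0517), Mki67 (-1.15), Top2a (-0.98), Mcm5 (-0.77) and Pcna (-0.36) were not called.

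This count rests on the canonical library of batch B, without which 1 member was called in place of 11, namely Dut. Leaving out the non-canonical library of batch B, C or D gave 5, 7 and 3 calls. Within batches the direction held: the summed S-phase level of canonical cells was 1.88, 1.17 and 1.41 times that of non-canonical cells in batches B, C and D, and the summed mitotic level 4.07, 1.58 and 2.29 times. Fitted with a batch term, 11 S-phase and 19 mitotic members were lower, where 21.5% of tested genes were lower. Among those called then but not before were Cdk1 (-1.69, adjusted p = 0.00818), Mki67 (-1.10, 0.00769) and Mcm5 (-0.73, 0.00275).

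The third comparison set WT non-canonical CD8+ cells against PDC. Of the S-phase members 16 of 17 had a log2 difference above 0 (median 0.89) and of the mitotic members 19 of 23 did (median 0.75), against a median of 0.03 over all tested genes. All 6 called S-phase members were higher in non-canonical cells, where 13.7% of tested genes were higher, and 5 of them are helicase subunits: Mcm3 (1.48 ± 0.30, adjusted p = 0.000991), Mcm7 (1.18 ± 0.32, 0.0103), Mcm4 (0.73 ± 0.20, 0.0116), Mcm5 (1.35 ± 0.42, 0.0236) and Mcm6 (0.83 ± 0.28, 0.0376). The other one was Gins2 (1.16 ± 0.33, 0.0152). Mcm3 had 58.6, 64.7 and 54.5 CPM in non-canonical cells and 13.6 and 28.8 in PDC, with no overlap. Of the mitotic members Mki67 was higher (2.06 ± 0.68, adjusted p = 0.0322) and Foxm1 lower (-2.28 ± 0.42, 0.000517), where 12.7% of tested genes were lower. Top2a (1.14), Cdk1 (0.75), Rrm2 (0.89), Tyms (0.55), Mcm2 (0.43), Pcna (0.36) and Ccnb1 (-0.40) did not pass the test.

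The levels in PDC depended on the batch here. In batch B the non-canonical cells had 1.57 times the summed S-phase level of PDC but 0.910 times the summed mitotic level. Leaving out the WT PDC library of batch A left 2 calls, Mcm3 and Foxm1, and leaving out that of batch B gave 14. Without the non-canonical library of batch C there were 5. With batch as a term 10 S-phase members and 4 mitotic members (Mki67, Top2a, Tpx2 and the condensin subunit Ncaph) were higher and Foxm1 was lower, where 22.8% of tested genes were higher and 20.7% lower. Here too that term set the level of PDC by the batch B libraries.

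**Figure D3:**
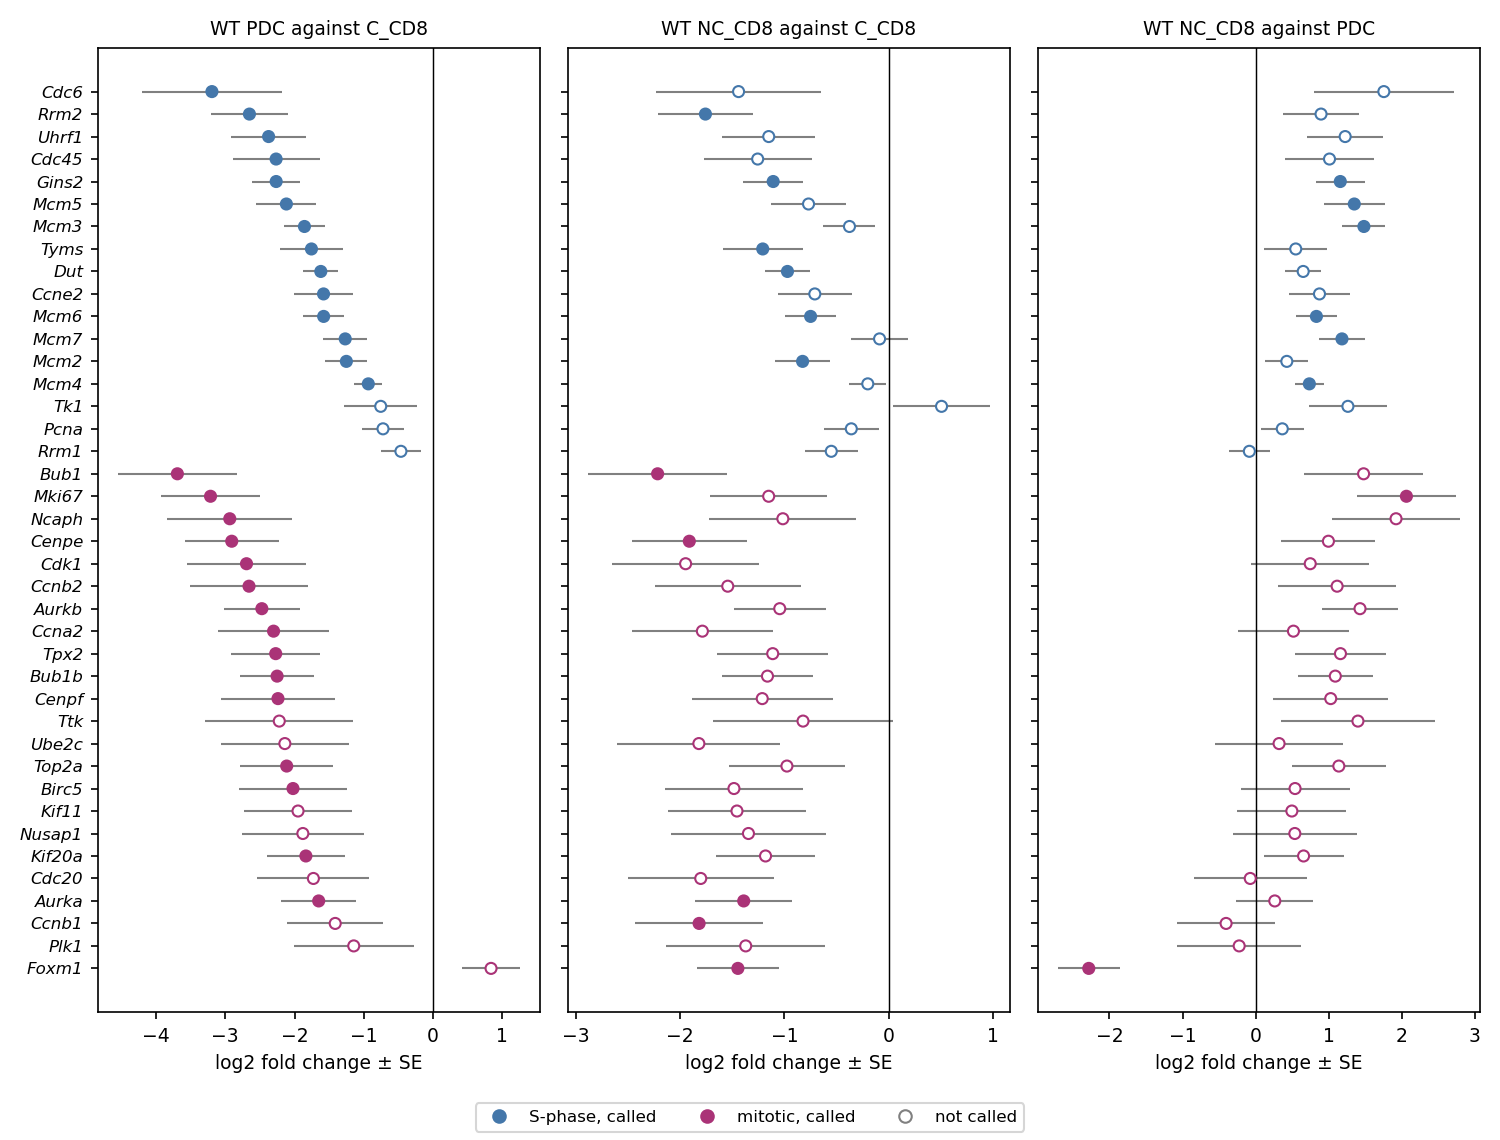
Log2 fold change with SE of each of the 40 members between WT subsets, for PDC against canonical CD8+, non-canonical against canonical CD8+, and non-canonical CD8+ against PDC. Filled points passed edgeR's test. In the first panel 29 members are filled and all of them lie below 0, and in the last panel Foxm1 (-2.28) lies apart from the other members.

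Esam-hi and Esam-lo CD11b+ cells were compared with 2 libraries in each group. No member was called by edgeR and none had an unadjusted p below 0.05, where 0.133% of tested genes were called higher and 0.525% lower. With batch as a term the count was again 0, with 4 members under the unadjusted threshold, and DESeq2 called 0. All 23 mitotic and 12 of 17 S-phase members had a log2 difference above 0, with medians of 0.49 and 0.19, against -0.0021 over all tested genes. Esam-hi libraries lay entirely above Esam-lo libraries for 14 mitotic and 7 S-phase members, where 19.7% of tested genes did. The 9 members followed in every comparison lay between 0.18 (Ccnb1) and 0.82 (Rrm2), with SE of 0.32 to 0.84. The 2 groups overlapped for Mki67, at 69.8 and 115 CPM in Esam-hi cells of batches C and D and 67.7 and 76.3 in Esam-lo cells. The summed mitotic level of Esam-hi over Esam-lo cells was 1.08 in batch C and 1.75 in batch D, and the S-phase ratio 1.01 and 1.33. Tk1 pointed the other way (-0.43 ± 0.56), with 48.3 and 102 CPM in Esam-hi and 53.0 and 149 in Esam-lo cells, the batch D library being the higher in each.

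Against the mean of both CD11b+ subsets, canonical CD8+ cells were higher in 2 of 17 S-phase members, Dut (0.82 ± 0.20, adjusted p = 0.00508) and Gins2 (0.95 ± 0.26, 0.012). This count is near the background, where 13.9% of tested genes were higher, and no mitotic member was called beside Dut and Gins2. Neither passed without the canonical library of batch B, and 4 members were called without the Esam-lo library of batch C. Among the members followed throughout, the differences ran from -0.23 (Top2a) to 0.74 (Cdk1). With batch as a term Dut, Gins2, Cdc45 and Mcm2 were higher and Tk1 and the spindle protein Nusap1 lower, where 19.2% of tested genes were higher and 18.7% lower. The batch term moved the mitotic median from 0.20, with 16 of 23 members above 0, to -0.26, with 6 above 0. It moved the S-phase median from 0.53 to 0.24, against 0.03 over all tested genes in both fits. Within batches C and D the canonical cells had 0.832 and 0.559 times the summed mitotic level of Esam-hi cells. The S-phase ratios to Esam-hi cells were 0.979 and 0.856. Against Esam-lo cells the mitotic ratios were 0.902 and 0.976 and the S-phase ratios 0.990 and 1.14.

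Non-canonical CD8+ cells were lower than the CD11b+ mean in 2 mitotic members, Cenpe (-1.84 ± 0.53, adjusted p = 0.0398) and Aurka (-1.56 ± 0.45, 0.0406), where 3.39% of tested genes were lower. Both calls were lost when 1 library was left out, for all of the 7 libraries but the non-canonical one of batch C, without which 1 member was called. All 40 members had a difference below 0, with a median of -1.23 for the mitotic and -0.24 for the S-phase group, against 0.01 over all tested genes. Ccnb1 (-1.88), Mki67 (-1.28), Rrm2 (-1.28), Top2a (-1.21) and Cdk1 (-1.21) were lower by more than 1 on this scale and Tyms (-0.59), Pcna (-0.48), Mcm2 (-0.24) and Mcm5 (-0.12) by less, none of them past the test. Higher there were 4.23% of tested genes and no member. With batch as a term 21 of 23 mitotic but 5 of 17 S-phase members were lower, where 9.15% of tested genes were lower. The summed mitotic level of Esam-hi cells was 1.90 and 4.10 times that of non-canonical CD8+ cells in batches C and D, and that of Esam-lo cells 1.75 and 2.35 times.

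The effect of the Flt3 ITD allele was asked within each subset. Without a term for the pair, edgeR called none of the 40 members in any of the 5 subsets. Members under an unadjusted p of 0.05 numbered 2 in PDC, 20 in non-canonical CD8+ cells and 0 in each of the other subsets. DESeq2 called 4 in non-canonical CD8+ cells, where it called 0.817% of tested genes lower, and 0 in the other subsets. Few genes were called at all: 0.0497% of tested genes were higher and 0.0111% lower in ITD PDC, and 0.105% higher and 0.204% lower in ITD non-canonical CD8+ cells. In canonical CD8+ cells 0.0166% were higher and none lower, in Esam-lo cells 0.00553% were higher and none lower, and in Esam-hi cells no gene was called. Because each ITD library has a WT partner of its own subset and batch, differences within pairs are given next, as ITD minus WT on a log2 CPM scale with a prior count of 2.

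Non-canonical CD8+ cells had lower levels of both groups in ITD mice. The summed S-phase level was 477, 411 and 445 CPM in ITD libraries of batches B, C and D, against 634, 649 and 592 in WT, with no overlap. The summed mitotic level was 154, 64.3 and 77.6 against 194, 251 and 161, and here too the groups did not overlap, with the ITD library of batch B close to the WT range. The mitotic sum as a share of the S-phase sum was 15.7% and 17.4% in the ITD libraries of batches C and D, below all WT libraries of this subset, and 32.3% in that of batch B, within their range.

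Mcm6 had 55.1, 41.1 and 38.3 CPM in ITD and 86.6, 90.9 and 74.6 in WT non-canonical cells. Uhrf1, which guides DNA methylation at the replication fork, had 9.19, 9.14 and 6.07 against 22.5, 19.3 and 10.3. Cdc45, which activates the helicase, had 2.71, 0.794 and 1.12 against 5.92, 7.14 and 5.23. All 3 genes were separated by genotype, and for Cdc45 the ITD libraries of batches C and D were the lowest of this subset. Rrm2 had 6.91, 3.23 and 2.53 against 9.43, 18.7 and 10.3, also without overlap.

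Among the mitotic members Kif20a, a kinesin of the central spindle, had 2.16, 1.19 and 0.530 CPM in ITD and 5.49, 8.12 and 4.96 in WT non-canonical cells. Ccna2, the cyclin of S and G2 phase, had 6.41, 1.99 and 1.002 against 10.9, 10.8 and 6.51. Mki67 had 28.1, 12.7 and 16.3 against 25.2, 39.7 and 35.9. Kif20a and Ccna2 did not overlap, while for Mki67 the batch B pair ran the other way. In all, 12 S-phase and 11 mitotic members had ITD libraries entirely below WT libraries, where 5.76% of tested genes did, and 13 S-phase and 17 mitotic members were lower in all 3 pairs, where 18.8% of tested genes were.

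**Figure D4:**
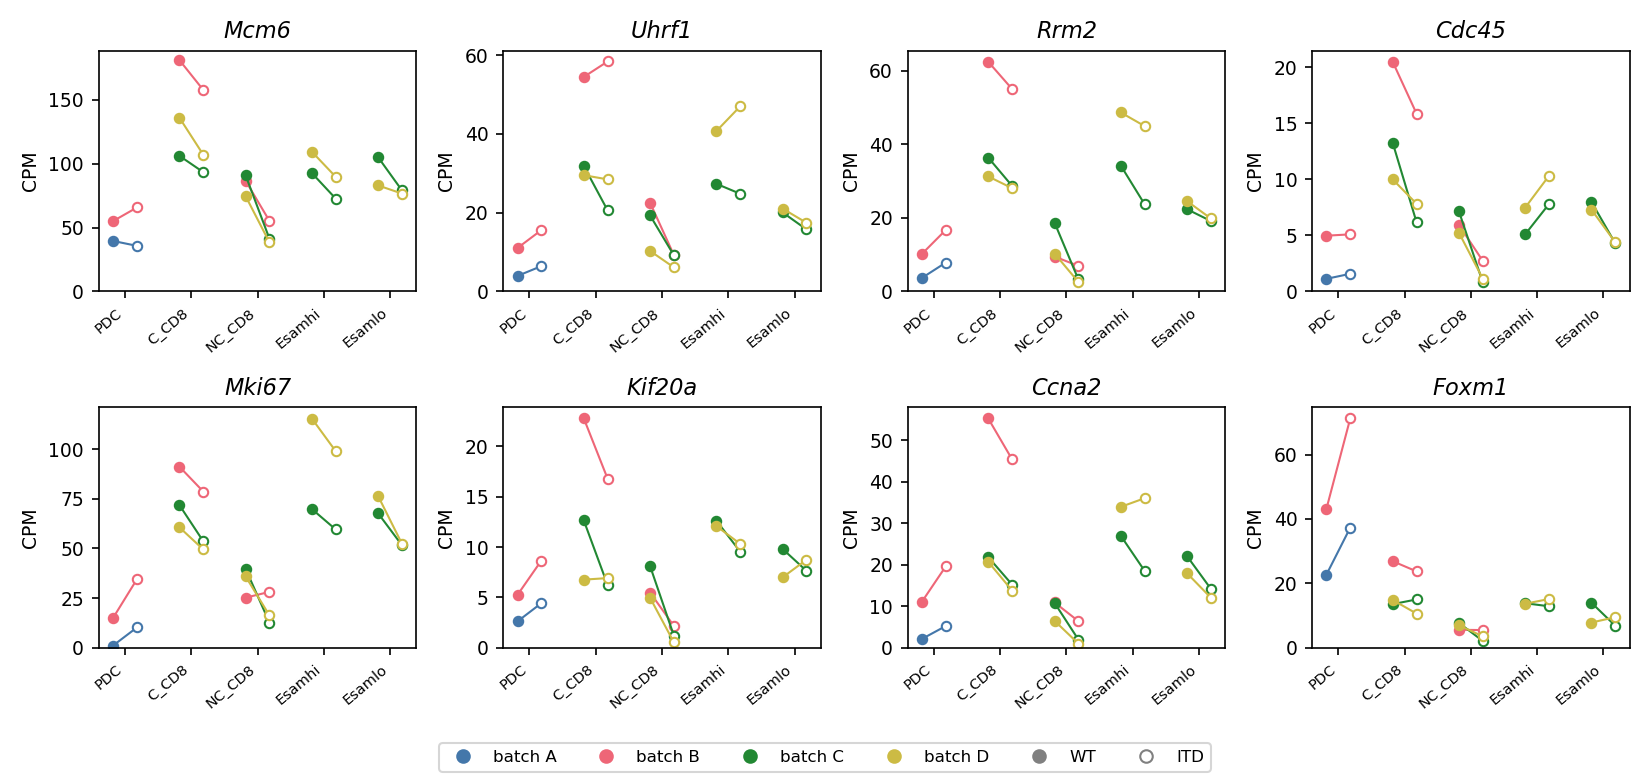
TMM-scaled CPM of 8 members (Mcm6, Uhrf1, Rrm2, Cdc45, Mki67, Kif20a, Ccna2 and Foxm1) in each of the 24 libraries, by subset, with WT filled, ITD open and lines joining the libraries of a batch. In non-canonical CD8+ cells the ITD libraries lie below all WT libraries for Mcm6, Uhrf1, Rrm2, Cdc45, Kif20a, Ccna2 and Foxm1 but not for Mki67, and Foxm1 reaches its highest values in PDC (43.1 in WT, 71.3 in ITD).

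The smallest adjusted p without the pair term was that of Kif20a (-2.26 ± 0.53, adjusted p = 0.0883), followed by Mcm6 (-0.91 ± 0.25, 0.19) and Cdc45 (-1.99 ± 0.56, 0.203). With the pair as a block 15 members were lower in ITD non-canonical cells, where 2.4% of tested genes were lower. The 8 S-phase ones were Mcm6 (-0.92 ± 0.11, adjusted p = 0.000978), Uhrf1 (-1.06 ± 0.16, 0.00332), Cdc45 (-2.07 ± 0.32, 0.00376), Mcm2 (-0.88 ± 0.15, 0.0067), Rrm2, Mcm5, Mcm3 and Dut. The 7 mitotic ones were Kif20a (-2.32 ± 0.33, 0.00261), Ccna2 (-1.78 ± 0.30, 0.00617), the passenger protein Birc5 (-2.15 ± 0.37, 0.00672), Cdc20 (-1.85 ± 0.33, 0.00828), the checkpoint protein Bub1b, Cdk1 and Top2a. Pcna (-0.24), Tyms (-0.89), Mki67 (-0.82) and Ccnb1 (-0.60), given here from the fit without the pair, were not called in either fit.

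The count of 15 leaned on the batch C pair. With the block and without that pair 4 members were called, Cdc45 (-1.60), Uhrf1 (-1.05), Kif20a (-2.06) and Mcm6 (-0.80). Without the pair of batch B there were 22 and without that of batch D 12, and the same 4 genes were among the called ones each time. The median of the mitotic members was -0.37 in batch B, -2.21 in batch C and -1.39 in batch D, and that of the S-phase members -0.56, -0.95 and -0.30. Cdc6, the origin loading factor, showed the widest single difference, with 7.14 CPM in WT and 0 reads in ITD in batch C, against 5.198 and 2.41 in batch B and 1.27 and 1.36 in batch D.

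Marker genes of other cells moved with genotype in these libraries, though not alike in all pairs. The NK cell, erythroid and red pulp macrophage sums were lower in ITD in batches C and D but not in batch B. The 8 T cell markers summed to 44.0, 116 and 87.6 CPM in WT and 22.1, 30.9 and 30.1 in ITD non-canonical cells, and Cd3e and Bcl11b were at 0 in the ITD library of batch B. The 6 NK cell markers summed to 1.78, 44.9 and 43.5 in WT and 1.85, 6.47 and 3.89 in ITD. The 8 erythroid markers summed to 67.7, 329 and 210 against 76.0, 192 and 117. Of these, Tfrc was higher in ITD in all 3 pairs (65.4, 145 and 108 in WT, 72.6, 165 and 110 in ITD). The globin gene Hba-a1 was lower in batches C and D (1.06, 101 and 56.0 in WT, 1.54, 13.5 and 4.24 in ITD). The 7 red pulp macrophage markers summed to 45.7, 747 and 222 against 67.8, 144 and 120, and the 7 cDC1 markers to 921, 1550 and 897 against 629, 620 and 679. The 8 plasma cell markers summed to 221, 301 and 279 against 179, 195 and 173. The sum of the CD11b+ dendritic list was higher in ITD in all 3 pairs (828, 931 and 1075 in WT, 1072, 1268 and 1304 in ITD). Its genes were split: Itgam, Sirpa, Irf4 and Cd4 were higher in ITD in all 3 pairs, and Esam, Clec4a4 and Dtx1 were lower in all 3. In the batch B pair the T cell difference was that of Cd5 (41.2 in WT, 19.1 in ITD), with the other T cell markers at most 2.16 in both libraries. The part of these lists in the lower member levels was not tested.

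In PDC the differences pointed up. The summed mitotic level was 137 and 392 CPM in ITD libraries of batches A and B, against 57.1 and 213 in WT. Each ITD library stood above its own partner, but the ITD library of batch A lay below the WT library of batch B, so the groups overlapped. The summed S-phase level was 338 and 456 against 331 and 403, a smaller difference. The mitotic sum as a share of the S-phase sum was 40.5% and 86.0% in ITD against 17.2% and 52.9% in WT.

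Mki67 had 10.2 and 34.5 CPM in the ITD PDC of batches A and B and 1.11 and 15.0 in WT. Aurkb had 4.99 and 13.3 against 1.33 and 5.60. Ncaph had 1.56 and 8.93 against 0.444 and 2.75. Each gene was higher in ITD in both pairs, and batch B was above batch A in both genotypes. Foxm1 had 37.3 and 71.3 against 22.7 and 43.1.

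Of the mitotic members 21 of 23 were higher in ITD in both pairs, where 26.6% of tested genes were, the exceptions being Ccnb1 and Bub1b in batch A. Of the S-phase members 11 of 17 were. The median mitotic difference was 1.52 in batch A and 0.86 in batch B, and the median S-phase difference 0.20 and 0.25. With 2 pairs no member was called without the block, where Mki67 had 1.48 ± 0.71, Top2a 1.06 ± 0.69, Cdk1 0.95 ± 0.87, Rrm2 0.83 ± 0.56, Ccnb1 0.57 ± 0.73, Mcm5 0.36 ± 0.44, Tyms 0.27 ± 0.47, Mcm2 0.14 ± 0.32 and Pcna -0.10 ± 0.32, each with an adjusted p of 1. With the block Ncaph (1.73 ± 0.25, adjusted p = 0.014) and Aurkb (1.51 ± 0.25, 0.0348) were higher, where 0.116% of tested genes were higher. Neither was called when either PDC pair was left out, and the single pair was then assumed to vary like the other subsets.

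Marker lists of other cells were compared in the same PDC libraries. The 8 plasma cell markers summed to 1816 and 1892 CPM in WT and 1852 and 1406 in ITD. Most of each sum was Xbp1 (1653 and 958 in WT, 1635 and 953 in ITD). Jchain had 28.8 and 623 in WT and 39.8 and 234 in ITD. Sdc1 (56.1 and 116 in WT, 25.8 and 50.6 in ITD) and, slightly, Xbp1 were lower in ITD in both pairs. Mzb1 was higher in both (70.9 and 113 in WT, 140 and 138 in ITD), and the rest were mixed. The 6 progenitor markers summed to 78.4 and 94.1 in WT and 82.5 and 86.6 in ITD. The 8 erythroid markers summed to 109 and 195 in WT and 125 and 213 in ITD, most of it Tfrc (99.6 and 184 in WT, 111 and 206 in ITD), a receptor that other cells carry too. The 9 B cell and germinal centre markers summed to 33.7 and 64.9 in WT and 43.4 and 63.9 in ITD, with Pax5, Mef2b and Rgs13 at 0 in all 4 libraries and Ms4a1 at 0 in both of batch B. The 7 CD11b+ dendritic markers summed to 1065 and 1118 in WT and 1380 and 1374 in ITD. Of these, Cd4 (599 and 641 in WT, 927 and 860 in ITD) and Sirpa were higher in ITD in both pairs. Itgam and Dtx1 were lower in both, and the rest were mixed. The 5 markers of all conventional dendritic cells summed to 5240 and 4628 against 6091 and 5474, with Itgax, Zbtb46, H2-Ab1 and Ciita higher in ITD in both pairs. The other one, Flt3, was lower in both (323 and 282 in WT, 250 and 280 in ITD). The sums of these last 2 lists did not overlap between genotypes, where 10.2% of single tested genes lay entirely higher in ITD. The part of any list in the member levels was not tested.

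Whether the ITD effect differed between these subsets was tested directly, in a contrast chosen after seeing the data. Without the block none of the 40 members differed between non-canonical CD8+ cells and PDC, with 22 under an unadjusted p of 0.05, and 0.00553% of tested genes were called lower. DESeq2 also called 0. Without the WT PDC library of batch B 1 was called. With the block 7 members had a lower ITD effect in non-canonical cells, where 0.182% of tested genes did and 0.0663% had a higher one: Ncaph (-2.34, adjusted p = 0.0158), Uhrf1 (-1.65, 0.0287), Kif20a (-3.05, 0.0304), Ccna2 (-2.79, 0.0343), Mcm6 (-0.98, 0.0452), and Rrm2 (-2.498) and Birc5 (-3.04), both at 0.04996. Leaving out the non-canonical pair of batch B, C or D left 16, 1 and 4 calls, and leaving out the PDC pair of batch A or B left 0 and 1. Higher in both PDC pairs and lower in all 3 non-canonical pairs were 10 of 17 S-phase and 16 of 23 mitotic members, against 4.1% of tested genes.

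**Figure D5:**
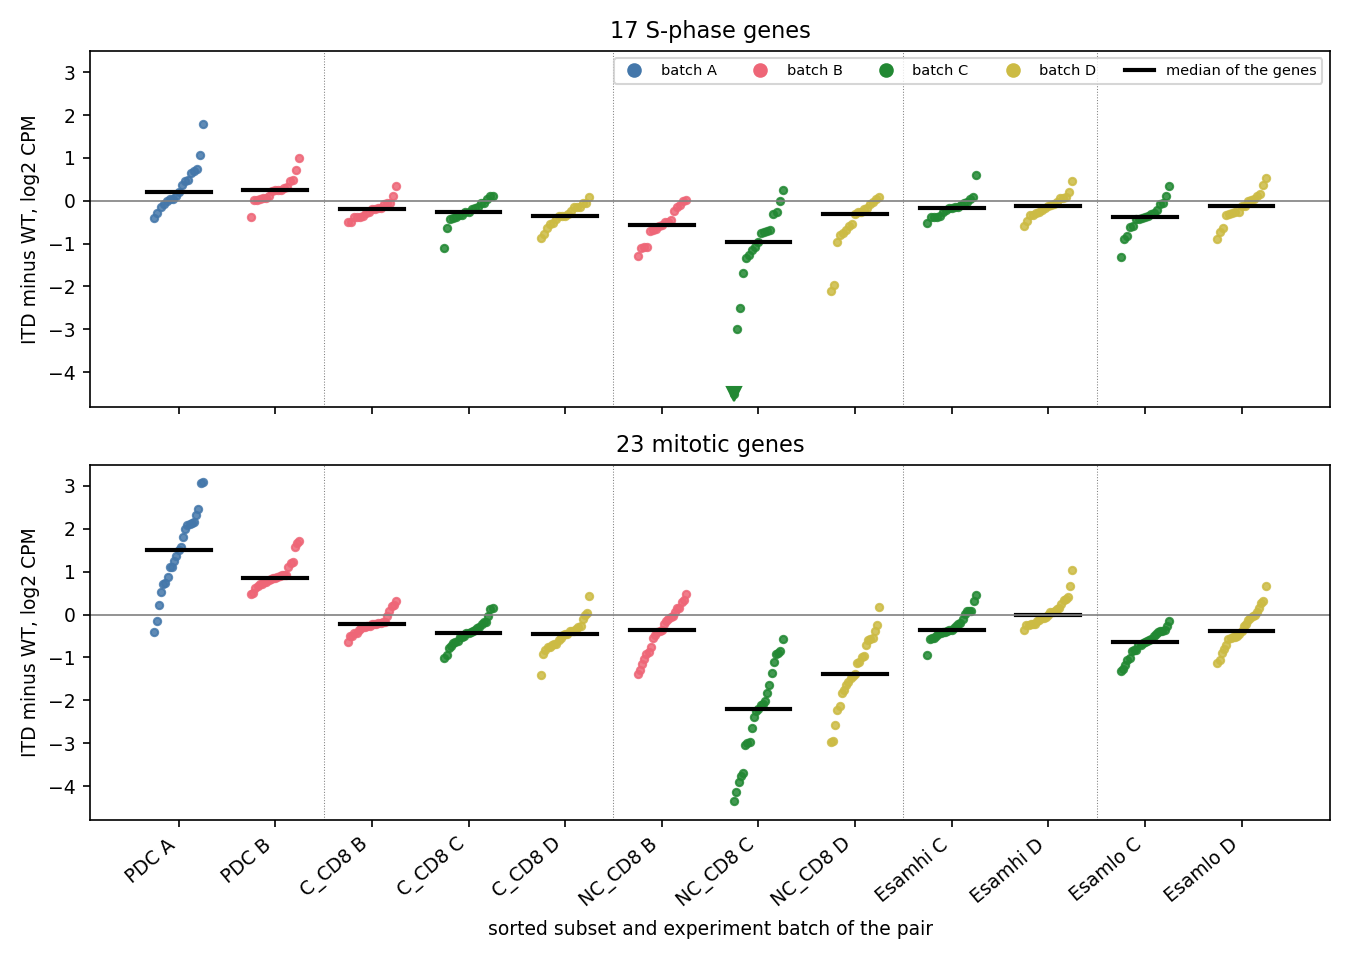
ITD minus WT log2 CPM (prior count 2) of the S-phase and mitotic members within each of the 12 pairs of libraries, by subset and batch, each point a gene and each bar the median. The mitotic medians are 1.52 and 0.86 in PDC and -0.37, -2.21 and -1.39 in non-canonical CD8+ cells. The triangle at the axis floor is Cdc6 at -6.00 in the batch C pair.

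The mean pair medians of the mitotic members lay nearer to 0 in the other subsets (-0.37 in canonical CD8+, -0.17 in Esam-hi and -0.51 in Esam-lo cells) than in PDC (1.19) and non-canonical CD8+ cells (-1.32). In canonical CD8+ cells the summed S-phase level was 1044, 656 and 686 CPM in ITD libraries of batches B, C and D, against 1192, 757 and 834 in WT. The summed mitotic level was 707, 301 and 275 against 789, 395 and 370. Each ITD library was below its partner, while the groups overlapped. Lower in all 3 pairs were 11 of 17 S-phase and 16 of 23 mitotic members, where 18.2% of tested genes were. The fitted differences of the members followed throughout ran from -0.47 (Tyms) to 0.055 (Top2a), with none called with or without the block, and Top2a went below 0 (-0.046) with the block. The blocked fit called 0.0442% of tested genes lower and 1.19% higher in these cells. Red pulp macrophage markers summed to 122, 296 and 317 CPM in WT and 126, 204 and 146 in ITD canonical cells, NK cell markers to 1.56, 9.004 and 6.92 against 1.83, 4.71 and 3.58, and CD11b+ dendritic markers to 79.3, 62.6 and 95.4 against 228, 84.5 and 102. Their part was not tested.

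In Esam-lo CD11b+ cells the summed mitotic level was 278 and 298 CPM in ITD and 438 and 379 in WT, and the S-phase level 615 and 664 against 764 and 733, neither overlapping. Cyclin Ccnb2 had 11.3 and 9.37 CPM in ITD and 20.5 and 17.6 in WT. For 7 S-phase and 17 mitotic members the ITD libraries lay below the WT libraries, where 17.3% of tested genes did. No member was called with or without the block, where the blocked fit called 0.0387% of tested genes higher and 0.0111% lower, and none was under an unadjusted p of 0.05 without it. DESeq2 called 0. The members followed throughout ran from -0.63 (Ccnb1) to -0.03 (Pcna). In the same Esam-lo libraries the NK cell markers summed to 45.6 and 26.2 CPM in WT and 7.82 and 10.3 in ITD. Plasma cell markers summed to 395 and 388 against 293 and 334, neutrophil and granulocyte markers to 19.3 and 21.9 against 13.7 and 4.87, and red pulp macrophage markers to 562 and 388 against 468 and 302. The part of these lists was not tested.

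In Esam-hi CD11b+ cells the pair medians lay nearest to 0. The summed mitotic level was 399 and 642 CPM in ITD and 475 and 661 in WT of batches C and D, and the S-phase level 688 and 881 against 773 and 975. The groups overlapped, and batch D was above batch C in each. The median mitotic difference was -0.35 in batch C and 0.00098 in batch D. Lower in both pairs were 10 S-phase and 8 mitotic members, where 27.9% of tested genes were. No member was called in either fit, and the blocked fit called 0.0442% of tested genes higher and 0.00553% lower. The members followed throughout lay between -0.27 (Rrm2 and Tyms) and -0.06 (Mcm5). NK cell markers summed to 22.4 and 2.91 CPM in WT and 3.67 and 0.433 in ITD Esam-hi libraries and plasma cell markers to 275 and 237 against 218 and 195, and their part was not tested.

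Averaged over the 5 subsets no member was called without the block, where 0.332% of tested genes were higher and 0.0276% lower and 5 members were under an unadjusted p of 0.05. The reference members ran from -0.44 (Cdk1) to -0.07 (Mki67). With the block 4 S-phase members were lower, Mcm6 (-0.34 ± 0.05, adjusted p = 0.00412), Dut (-0.26 ± 0.06, 0.0238), Mcm2 (-0.28, 0.0439) and Cdc45 (-0.55, 0.049), where 2.34% of tested genes were lower and 4.49% higher. No mitotic member was called. A test of whether the ITD effect differed among all 5 subsets called 0 members without the block and Ncaph with it (adjusted p = 0.0402), where 0.304% of tested genes were called.

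Related genes outside the list of 40 were counted in the same fits. Of 44 other mitotic genes 42 had a log2 ITD difference below 0 in non-canonical CD8+ cells (median -0.60, against 0 over all tested genes), and 1 passed the test without the block, Kif23, a motor of cytokinesis (-2.04, adjusted p = 0.0184). Kif23 had 13.9 ± 2.65 CPM in WT (SD, n = 3) and 3.39 ± 1.99 in ITD (n = 3), with no overlap. Of 40 other S-phase genes 32 were below 0 (median -0.44) and 1 was called, Dtl, the adaptor of a ubiquitin ligase that acts on the replication fork (-1.38, adjusted p = 0.0335). With the block 9 of the mitotic and 5 of the S-phase genes were lower, where 2.4% of all tested genes were. In PDC 43 of 44 mitotic genes (median 0.62) and 35 of 40 S-phase genes (median 0.31) had an ITD difference above 0, with 0 called in either fit. Between WT subsets 20 of the 44 mitotic and 21 of the 40 S-phase genes were lower in PDC than in canonical CD8+ cells, where 19.5% of tested genes were. In non-canonical against canonical CD8+ cells 7 and 8 were lower, where 12.6% of tested genes were, so that the mitotic count there is near the background.

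Some members share sequence or position with other genes, and their counts are uncertain to that extent. Exons of Gins2 overlap those of an antisense gene over 67.3% of their bases, those of Kif20a over 29.3%, of Ube2c over 22.8%, of Ccne2 over 17.4% and of Ccna2 over 12.5%, and no source used here states whether strand was used in counting. Of all words of 50 bases in their transcripts, 23.4% in Ccnb1, 19.1% in Pcna, 18.1% in Mcm7, 15.4% in Uhrf1 and 10.4% in Cdc20 also occur in transcripts of another gene. Mcm6 and Mki67 overlap no other gene and share 0.472% and 0.668% of their words, while 5.96% of the exon bases of Cdc45 overlap an antisense gene and 4.95% of the words of Rrm2 are shared.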

How the data were processed

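RNA came from sorted cells, was purified with PicoPure kits (for some samples after Trizol), amplified with SMART-seq v4 and made into libraries with a Clontech low input kit, per the labels' protocols. The authors deposited 1 table of raw read counts per gene; bcl2fastq 1.8.4, Bowtie2, DESeq2 1.8.2 and mm10 are named in the submitters' processing notes, while no source used here names the read counter or its annotation. The 24 libraries held 11197145 to 22248404 counts, and 37693 of 39017 genes matched a symbol.

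Counts were fitted with edgeR 4.0.16 (R 4.3.3) by quasi-likelihood with 10 group means, TMM factors, filterByExpr at a minimum count of 10 and Benjamini-Hochberg adjustment over 18093 genes. Genes were called at an adjusted p below 0.05. Alternatives were a block for the batch pair (WT comparisons: the batch as a term), DESeq2 1.42.0, its size factors in edgeR, no filter and leaving out each library. Batch letters in the labels pair the libraries. In the CD8+ subsets deviations from group means correlated best within each pair (r 0.198 to 0.526, against at most 0.148 with another batch). In groups of 2 libraries the deviations mirror each other, so r with the other batch is fixed as minus r within the pair. In those groups r within the pair was above 0 (0.134 to 0.646), and only its sign is informative. Exon overlaps and lengths use GENCODE M21 annotation of GRCm38. The edgeR fit without a block was tested on simulated counts, which held no batch or pair effect. In each comparison the 4 called S-phase and 4 called mitotic members with the smallest adjusted p and 9 reference members (Mki67, Top2a, Cdk1, Ccnb1, Mcm2, Mcm5, Pcna, Rrm2, Tyms) are given in full, and at most 3 genes of each other list. The members and lists were chosen with earlier results of these data known.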

Additional observations from a re-analysis of the deposited data

Results flagged for a closer look

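In PDC the pair differences (ITD minus WT, log2) lay on the opposite side of 0 from those of other subsets. The mean over pairs of the S-phase median was 0.23 in PDC, with both pairs above 0, while every pair of the canonical CD8+, non-canonical CD8+, Esam-hi and Esam-lo cells was below 0. For the mitotic members it was 1.19 in PDC, with every pair of the canonical CD8+, non-canonical CD8+ and Esam-lo cells below 0. These differences of medians were not tested. For single genes the blocked edgeR test of the ITD effect in non-canonical CD8+ cells against that in PDC gave adjusted p-values of 0.0158 for Ncaph, 0.0287 for Uhrf1, 0.0304 for Kif20a, 0.0343 for Ccna2, 0.0452 for Mcm6 and 0.04996 for both Birc5 and Rrm2. For Ncaph the blocked test among all 5 subsets gave 0.0402. Groups of 2 or 3 libraries are too small for a check of single outlying libraries.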

How the results depend on the processing

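The sign of the median of both classes kept to one side of 0 in all 5 subsets when each pair was left out, except for the mitotic members of Esam-hi cells (-0.35 to 0.00098). Counts of called members moved more. With the replicate block (the pair, or the batch in WT comparisons) they were 2 for the ITD effect in PDC, 15 in non-canonical CD8+ cells, 4 for the mean ITD effect, 7 for the ITD effect in non-canonical CD8+ cells against PDC, 1 among subsets, and 30, 15, 6 and 26 for WT non-canonical against canonical CD8+ cells, non-canonical CD8+ cells against PDC, and canonical and non-canonical CD8+ cells against the CD11b+ mean. Main counts were 0 for the ITD effects and 11, 8, 2 and 2. DESeq2 gave 4 for the ITD effect in non-canonical CD8+ cells and 6 for WT non-canonical CD8+ cells against the CD11b+ mean, and fitting without the count filter gave 1 for the former. Alternatives chosen after seeing the data were the contrast of the ITD effect between non-canonical CD8+ cells and PDC, leaving out the CD8+ libraries of batch B, and the replicate block without 1 pair. Without the CD8+ libraries of batch B the counts were 1, 0 and 1 for WT non-canonical against canonical CD8+ cells and for canonical and non-canonical CD8+ cells against the CD11b+ mean. With the replicate block and without the non-canonical pair of batch B, C or D the ITD effect there gave 22, 4 and 12 calls and its difference from PDC 16, 1 and 4, and without the PDC pair of batch B 1. Without 1 library, counts ranged from 16 to 31 for all WT subsets, 13 to 33 for PDC against canonical CD8+ cells, 2 to 14 for non-canonical CD8+ cells against PDC, 1 to 12 for non-canonical against canonical CD8+ cells, 0 to 4 and 0 to 1 for canonical and non-canonical CD8+ cells against the CD11b+ mean, and 0 to 1 for the ITD effect in non-canonical CD8+ cells against PDC. The cause of these moves was not tested. By plain library totals the summed S-phase level of WT non-canonical CD8+ cells was 660.7 CPM. Top2a in canonical CD8+ cells went from 0.055 to -0.046 with the replicate block and to -0.18 without batch B. With the replicate block and 1 pair left out, Pcna reached 0.14 in the contrast with PDC (without PDC batch A) and, without PDC batch B, Mcm2 was -0.0097, Pcna 0.041 and Ccnb1 -0.45 in PDC, while Ccnb1 was 0.056 in non-canonical CD8+ cells without batch C. Of 165 single-gene results 38 changed sign when 1 library was left out, and none of these had been called. In the ITD effect in PDC the range was -0.27 to 0.46 for Mcm2, -0.30 to 1.13 for Mcm5, -0.25 to 1.09 for Tyms, -0.76 to 0.33 for Pcna, -1.58 to 1.69 for Ccnb1. In the mean ITD effect the range was -0.30 to 0.17 for Top2a, -0.30 to 0.50 for Mki67, -0.63 to 0.022 for Ccnb1. In the ITD effect in non-canonical CD8+ cells against PDC the range was -0.58 to 0.51 for Pcna, -2.29 to 0.98 for Ccnb1. In WT non-canonical CD8+ cells against PDC the range was -0.082 to 2.86 for Cdk1, -1.03 to 0.71 for Ccnb1. In the ITD effect in canonical CD8+ cells the range was -0.56 to 0.083 for Mcm5, -1.26 to 0.24 for Cdk1, -0.60 to 0.14 for Rrm2, -0.72 to 0.61 for Top2a, -0.28 to 0.18 for Pcna, -0.82 to 0.053 for Ccnb1. In WT canonical CD8+ cells against the CD11b+ mean the range was -0.81 to 0.022 for Top2a, -0.38 to 0.033 for Pcna, -0.33 to 0.072 for Mki67, -0.29 to 0.17 for Ccnb1. In the ITD effect in non-canonical CD8+ cells the range was -0.84 to 0.024 for Ccnb1. In WT non-canonical CD8+ cells against the CD11b+ mean the range was -0.32 to 0.16 for Mcm5. In the ITD effect in Esam-hi cells the range was -0.74 to 0.21 for Cdk1, -0.81 to 0.12 for Rrm2, -0.47 to 0.16 for Top2a, -0.51 to 0.00013 for Tyms, -0.38 to 0.13 for Pcna, -0.64 to 0.18 for Mki67, -0.52 to 0.21 for Ccnb1. In WT Esam-hi against Esam-lo cells the range was -0.21 to 0.76 for Mcm5, -0.073 to 0.44 for Tyms, -0.043 to 0.70 for Mki67. In the ITD effect in Esam-lo cells the range was -0.35 to 0.32 for Mcm2, -0.52 to 0.45 for Mcm5, -0.25 to 0.042 for Tyms, -0.13 to 0.059 for Pcna.

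With 2 or 3 libraries a group, differences smaller than the spread between batches could not be detected without the block, and the lowest members (Cdc6 and Ttk, with libraries at 0 reads) carry counting error as well.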

Other observations

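Some regulators upstream of the replication and mitotic genes differed between WT subsets. In PDC against canonical CD8+ cells 18.2% of all tested genes were higher and 19.5% lower, against which the counts below are to be read. Cdkn2d, an inhibitor of Cdk4 and Cdk6, had 206 ± 39.9 CPM in PDC (SD, n = 2), 86.2 ± 27.0 in non-canonical CD8+ cells (n = 3) and 13.6 ± 8.39 in canonical CD8+ cells (n = 3), and it was higher than in canonical cells both in PDC (log2 fold change 3.92, adjusted p = 8.57e-07 by edgeR) and in non-canonical cells (2.66, 5.63e-05). Cdkn1b, an inhibitor of Cdk2, was lower in PDC than in canonical CD8+ cells (-1.12, 0.000854) and in non-canonical CD8+ cells (by 1.45, 0.000124). Of 9 inhibitors and pocket proteins tested, 1 was higher and 3 were lower in PDC than in canonical CD8+ cells. Of 15 E2F, DP and MuvB-type factors 1 was higher in PDC, the repressor E2f4 (0.74, 0.000436), and 7 were lower, among them E2f3 (-1.04, 0.00139) and E2f8 (-2.81, 0.00579). Of 9 quiescence and antiproliferative genes 3 were higher in PDC, Txnip (1.73, 0.000441), Foxo3 (1.36, 0.00313) and Klf2 (1.20, 0.00494), and 1 was lower.

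In non-canonical CD8+ cells the D-type cyclin Ccnd1, which drives entry into the cycle, had 207 ± 11.7 CPM in WT (SD, n = 3) and 98.6 ± 15.4 in ITD (n = 3), and it was lower in ITD both without the pair block (-1.07, adjusted p = 0.0496 by edgeR) and with it (-1.08, 0.00257). It was the only one of 7 G1 genes called there, where 0.204% of all tested genes were lower without the block and 2.4% with it. With the block the cyclin-dependent kinase inhibitor Cdkn1a (0.75, 0.0198), Ccng2 (0.74, 0.00422) and Btg2 (0.45, 0.0213) were higher and E2f1 (-0.94, 0.0244) was lower in ITD, and none of these passed without the block. The blocked fit called 2.38% of all tested genes higher and 2.4% lower.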
